A study of Homo sapiens with 8 samples.

Results

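The 9 genes described here mark the mesenchymal and adhesion state of an epithelial cancer cell: FN1, VIM, ZEB1, ZEB2, CD44, ALCAM, MCAM, EPCAM and CD24. They were chosen by name, each being the only gene symbol of its probe set in the annotation of the array, and all 9 were among the 14884 genes measured. Levels were read with 1 array each in 8 clones of PC-3, a human prostate cancer line that grows without androgen. A lentiviral vector carrying RWDD4 had been introduced into 4 clones (clones 17, 24, 5 and 6) and the same vector without an insert into the other 4 (clones 2, 3, 4 and 5), and all clones had been selected with blasticidin. No other treatment is labelled. Replicates are separate clones of 1 line, so p-values set the group difference against the spread between clones after selection.

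Epithelial cells are held together by surface proteins such as EPCAM and by keratin filaments. Cells that shift towards a mesenchymal state lose parts of this equipment and make fibronectin (FN1) and vimentin (VIM) instead. The zinc finger repressors ZEB1 and ZEB2 drive the shift by silencing epithelial genes, and the microRNAs of the miR-200 family repress ZEB1 and ZEB2 in turn. CD44, ALCAM, MCAM and CD24 are surface adhesion proteins that have been used to define invasive or stem-like fractions of carcinoma cells. PC-3 is known as a line with both epithelial and mesenchymal traits.

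The vector's gene was checked first. On the log2 scale the clones with the RWDD4 vector had 9.87 to 10.46 of RWDD4 and the empty-vector clones 6.64 to 8.0, with no overlap. Across the 14884 genes, r lay at 0.991 to 0.993 for pairs of RWDD4 clones, at 0.98 to 0.992 for pairs of controls and at 0.913 to 0.974 for pairs from both groups. Control clone 2 stood apart from the other controls: on the leading axis of variation within the groups it lay at 58.4, where its 3 fellow controls had 12.2 to 24.4 and clones with RWDD4 -35.9 to -19.7. Epithelial keratins, which define the cell type labelled, were measured in all clones, KRT18 at 10.49 to 11.2 and KRT8 at 6.33 to 6.88. Of 7 fibroblast markers 2 were measured, and both lay near the low end of the table in every clone, DCN at 2.62 to 2.96 and LUM at 3.0 to 3.19, with a mean over both of 2.84 to 2.95 (RWDD4 clones) and 2.87 to 2.99 (control clones). No marker was at 0 on this scale.

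Of the 9 genes, 6 rose and 2 fell in the RWDD4 clones at an adjusted p under 0.05 from limma, and EPCAM did not pass. The background is wide: 46.7% of all genes passed, 25.1% upward and 21.6% downward. The median difference, RWDD4 minus control clones, was 0.64 log2 units over the 9 genes and -0.08 over all genes. Groups did not overlap in 7 of the 9, against 44.8% of all genes. RWDD4 clones were above in 6 of these 7 (23.7% of all genes) and below in 1 (21.1%). The 9 genes were chosen with earlier results of these data known. Their shares and median are therefore a description, and their distance from those of all genes was not tested. The matrix protein gene FN1 and the adhesion gene ALCAM had the largest differences, and 5.39% and 5.35% of all genes differed by as much or more in either direction. ZEB2 had the smallest difference that passed, and 56.2% of all genes differed by as much or more. Scaling bears on the balance of directions: of all calls 53.8% were rises on the deposited values and 42.7% after quantile normalization. The share was 36.5% after median centring, which shifted the median difference of all genes from -0.08 to -0.21. After cyclic loess 52.5% were rises, close to the deposited values, and the median difference was -0.04.

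**Figure D1:**
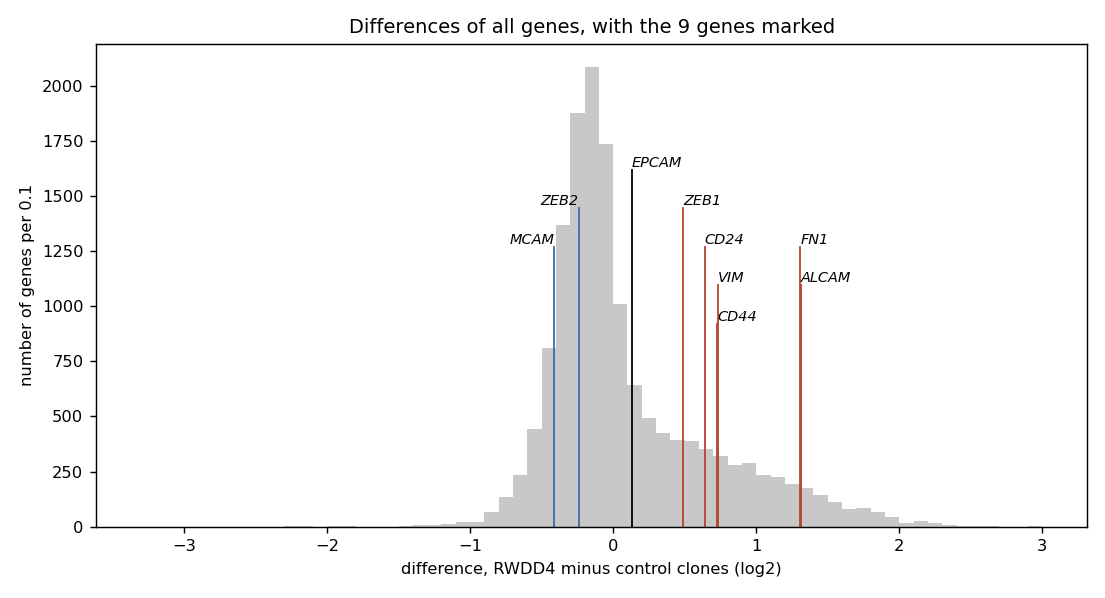
Histogram of the differences of all 14884 genes between RWDD4 and control clones (x axis, log2; y axis, number of genes in bins of 0.1), with lines at the 9 genes, red for higher, blue for lower and black for not passed. FN1 and ALCAM lie in the upper tail at 1.31, and ZEB2, at -0.24, lies among the bulk of all genes.

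FN1 (Entrez gene 2335) encodes fibronectin, a matrix glycoprotein that cells bind through integrins. Its level was 9.14, 8.76, 9.6 and 8.88 in RWDD4 clones 17, 24, 5 and 6 and 6.86, 8.14, 7.92 and 8.23 in control clones 2, 3, 4 and 5. Every RWDD4 clone was above every control clone, and control clone 2 was far below the other 3 controls. The means were 9.09 ± 0.37 and 7.79 ± 0.63 (SD, n = 4 each), a difference of 1.31 (SE 0.29) or 2.48-fold (adjusted p = 0.00385). The exact permutation p was 0.0286, the smallest that 4 against 4 clones allow. Without control clone 2 the difference was 1.0 and still passed.

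VIM (Entrez gene 7431) encodes vimentin, the intermediate filament protein of mesenchymal cells. RWDD4 clones 17, 24, 5 and 6 lay at 8.79, 8.53, 8.71 and 8.81, and control clones 2, 3, 4 and 5 at 7.83, 7.88, 8.08 and 8.12. The spread within a group was small, 0.27 and 0.3 from lowest to highest, and the groups were 0.41 apart at their nearest clones. VIM rose by 0.73 (SE 0.10) or 1.66-fold (adjusted p = 0.000337; exact permutation p 0.0286). It was the 1 gene of the 9 with more than 1 probe set, and its 3 probe sets differed. The brightest gave the values above. The dimmest, with a mean of 6.81, differed by 0.46 (adjusted p = 0.0229 over all probe sets) with overlapping groups, and the middle one, with a mean of 7.22, by -0.02 (adjusted p = 0.893). Which parts of the transcript each reads is not given in the sources used here.

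ZEB1 (Entrez gene 6935) and ZEB2 (Entrez gene 9839) are paralogous repressors, and they moved in opposite directions. ZEB1 lay at 5.8, 6.01, 5.78 and 6.2 in RWDD4 clones 17, 24, 5 and 6 and at 5.4, 5.38, 5.47 and 5.57 in control clones 2, 3, 4 and 5. No clone crossed between the groups, and RWDD4 clone 6 was the highest. The means of 5.95 ± 0.20 and 5.46 ± 0.09 (SD, n = 4 each) differed by 0.49 (SE 0.11) or 1.40-fold (adjusted p = 0.00478). ZEB2 lay at 4.5, 4.43, 4.57 and 4.58 in the RWDD4 clones and at 4.77, 4.63, 4.82 and 4.81 in the control clones, in the same order. The groups were parted by 0.05, and all 8 values were under the median of the deposited values, 4.92. No background level was measured, so how far ZEB2 lies above background was not determined. Its fall of 0.24 (SE 0.09) had an adjusted p of 0.0406, and it did not pass with any 1 of 7 of the 8 clones left out, after quantile normalization (-0.2) or after cyclic loess (-0.16).

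The miR-200 family is shown because it is the known repressor of both ZEB genes, and its members fall into 2 groups by seed, the bases at positions 2 to 8 that pair with a target. The mature sequences, from RefSeq with GRCh38.p14, are given 5′ to 3′ with the seed in capitals; 3 share AAUACUG and 2 share AACACUG.
miR-200b-3p: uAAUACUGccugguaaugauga
miR-200c-3p: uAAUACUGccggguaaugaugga
miR-429: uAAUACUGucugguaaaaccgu
miR-200a-3p: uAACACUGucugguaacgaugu
miR-141-3p: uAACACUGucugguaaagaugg

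The array carried a probe set for each of the 5 miR-200 genes. They read RNA from RNeasy Mini columns, which keep mainly longer molecules, and mature miRNAs were not measured. MIR200A lay at 3.61, 3.6, 3.42 and 3.81 in RWDD4 clones 17, 24, 5 and 6 and at 4.11, 3.99, 4.14 and 3.93 in control clones 2, 3, 4 and 5. It was lower in every RWDD4 clone and fell by 0.43 (SE 0.10; adjusted p = 0.006). MIR200C, with the other seed, fell by 0.44 (SE 0.16; adjusted p = 0.0493) with overlapping values of 3.0 to 3.82 (control) and 2.81 to 3.21 (RWDD4); it did not pass after quantile normalization, after cyclic loess or with any 1 of 6 clones left out. MIR200B, MIR429 and MIR141 did not pass, at -0.23 (95% interval -0.53 to 0.08), -0.22 (-0.49 to 0.05) and -0.07 (-0.32 to 0.18); MIR429 passed after median centring (-0.35, adjusted p = 0.026). The probe sets of 4 of the 5 lay under the median of the deposited values in every clone, and with each array's trend over genomic span removed MIR200A was at -0.24 (adjusted p = 0.0711) and MIR200C at -0.25 (adjusted p = 0.28).

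Among the 12 measured genes of the list of other EMT transcription factors and their partners, 1 rose and 2 fell (median -0.19), against 25.1% and 21.6% of all genes. TCF4, an E-box factor that can drive the mesenchymal shift, rose by 0.53 (SE 0.11; adjusted p = 0.00248). GSC and TCF3 fell by 0.42 and 0.36; neither passed without control clone 2 or with any 1 of several other clones left out, nor did GSC with the span trend removed (-0.13). After median centring 1 rose and 7 fell, and of all 14884 genes 3307 rose and 5765 fell. SNAI1, SNAI2 and TWIST1, the best known drivers beside the ZEB genes and named here for that role, did not pass, at -0.17, 0.42 and -0.11; SNAI2 passed with the span trend removed (0.71, adjusted p = 0.0149). SNAI2 was low in RWDD4 clone 5 (9.49) and at 10.21 to 10.34 in the other RWDD4 clones, against 9.24 to 9.94 in the control clones. In the list of epithelial regulators that oppose the ZEB factors 4 of 16 fell and none rose (median -0.15), and the falls, 25%, are near the 21.6% of all genes. OVOL1, a zinc finger repressor of ZEB1, fell by 0.47 (SE 0.10; adjusted p = 0.00369) and GRHL2, which also holds ZEB1 down, by 0.30 (adjusted p = 0.0399), which did not hold after quantile normalization (-0.26) or cyclic loess (-0.22), nor with any 1 of 5 clones left out. The other 2 were MIR200A and MIR200C. GRHL2 lay at 4.32 to 4.85 over all clones, under the median of the deposited values, 4.92.

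Of the 9 measured epithelial surface and polarity genes, among them known targets of ZEB1, 6 fell and 2 rose (median -0.42), against 21.6% and 25.1% of all genes. LLGL2, a polarity protein of the basolateral membrane, fell by 0.81 (SE 0.13; adjusted p = 0.000713), and the desmosomal plakophilin PKP3 by 0.54. CRB3, the small apical Crumbs protein, lay at 6.09 to 6.47 with RWDD4 and at 6.57 to 6.84 without, and fell by 0.49 (adjusted p = 0.00477). CLDN7, a claudin that binds EPCAM, lay at 5.84 to 6.14 and 6.34 to 6.7 and fell by 0.52 (adjusted p = 0.00327). PATJ, a scaffold protein of the Crumbs complex, rose by 0.88 (SE 0.12), and the tight junction protein gene MARVELD2 by 0.53. The other 7 genes of the list, CDH1 among them, were not named in the annotation used and were not analysed here. With the span trend removed 4 fell and 2 rose; CRB3 lay at -0.21 (adjusted p = 0.116) and CLDN7 at -0.23 (adjusted p = 0.0886).

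ZEB proteins bind E-boxes with the letters CAGGTG, which read CACCTG on the other strand. Upstream windows of 250 bases ending at an annotated start were read from RefSeq (GRCh38.p14) for 8 of the 9 genes and searched on both strands. ZEB1 had windows at 7 starts, CD24 at 3 and the others at 1, 16 in all. The motif was in 5 of these 16 windows (31.2%), against 17.5% of all 35116 promoter windows. They were 2 of ZEB1 and 1 each of ALCAM, MCAM and CD24, and FN1, VIM, ZEB2 and CD44 had none. Of the epithelial surface list 8 genes had windows, and 9 of their 12 windows held the motif; some of these windows overlap. Of these 8 genes 3 were not measured, and 4 of the 6 genes of the list that fell had no window here. Of the genes that rose, PATJ had 2 copies and MARVELD2 none. CRB3 had 5 copies and CLDN7 4 at 1 of its 2 starts, and 0.122% of all windows had 4 or more. Other E-box factors, TCF3 and TCF4 among them, read the same letters. A match is a description of the letters and no evidence of binding.

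The windows of CRB3 (chr19:6464021-6464270, plus strand) and CLDN7 (chr17:7262479-7262728, minus strand) are shown for their many copies, and that of ALCAM (chr3:105366659-105366908, plus strand) as the member with the largest rise, which has 1. Each runs 5′ to 3′ towards the start with the motif in capitals.
CRB3: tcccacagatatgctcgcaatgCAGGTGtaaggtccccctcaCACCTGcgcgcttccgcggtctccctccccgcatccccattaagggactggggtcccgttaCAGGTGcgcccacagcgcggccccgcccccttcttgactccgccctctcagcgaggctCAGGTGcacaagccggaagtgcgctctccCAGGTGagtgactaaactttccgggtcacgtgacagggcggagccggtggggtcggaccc
CLDN7: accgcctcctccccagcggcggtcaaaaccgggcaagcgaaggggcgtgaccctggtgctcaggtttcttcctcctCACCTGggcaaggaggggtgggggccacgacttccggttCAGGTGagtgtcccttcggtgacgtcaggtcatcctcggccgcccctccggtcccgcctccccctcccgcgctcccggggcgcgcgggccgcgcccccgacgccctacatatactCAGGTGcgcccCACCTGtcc
ALCAM: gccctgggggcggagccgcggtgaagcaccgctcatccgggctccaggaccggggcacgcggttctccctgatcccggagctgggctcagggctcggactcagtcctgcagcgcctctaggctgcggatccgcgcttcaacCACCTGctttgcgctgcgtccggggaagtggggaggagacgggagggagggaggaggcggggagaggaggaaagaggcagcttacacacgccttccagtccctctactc

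CD44 (Entrez gene 960) encodes a receptor for hyaluronan, a sugar polymer of the matrix. It lay at 6.99, 7.12, 7.23 and 7.17 in RWDD4 clones 17, 24, 5 and 6, within 0.24 of each other. Control clones 2, 3, 4 and 5 were at 5.98, 6.49, 6.46 and 6.68, with clone 2 the lowest, and none reached the RWDD4 clones. The difference of 0.73 (SE 0.14) is 1.65-fold (adjusted p = 0.00199; exact permutation p 0.0286). CD44 is spliced into standard and variant forms, and its 1 probe set does not part them. The splicing regulators that favour the variant forms, named for this role, did not pass: ESRP1 lay at 3.19 to 3.44 over all clones, with a difference of -0.08 (95% interval -0.27 to 0.11), and ESRP2 at 8.63 to 8.88, with 0.01 (-0.18 to 0.21). With the span trend removed both passed, ESRP1 at -0.36 (adjusted p = 0.0126) and ESRP2 at 0.25 (adjusted p = 0.031). All ESRP1 values were under the median of the deposited values, 4.92, and how far they lie above background was not determined.

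Among 12 measured partners of CD44 and enzymes of hyaluronan, 6 rose and 2 fell (median 0.15), which is 50% and 16.7% against 25.1% and 21.6% of all genes. The hyaluronan receptor HMMR, which also acts on the mitotic spindle, rose most. It lay at 7.11, 7.77, 9.02 and 8.36 in RWDD4 clones 17, 24, 5 and 6 and at 5.4, 5.59, 5.73 and 6.36 in control clones 2, 3, 4 and 5, a difference of 2.29 (SE 0.35) or 4.91-fold (adjusted p = 0.000505). Of the ERM proteins that tie CD44 to actin, radixin (RDX) rose by 1.10 and moesin (MSN) by 0.39, while ezrin (EZR) lay at -0.05 (95% interval from the same fit in the same units, -0.25 to 0.15) and did not pass. NF2, their relative and a tumour suppressor, rose by 0.31. Of the hyaluronan synthases, HAS2 rose by 0.48 and HAS3 fell by 0.50. The hyaluronidase CEMIP2 rose by 0.52 and HYAL2 fell by 0.51. NF2 did not pass after median centring (0.19), nor CEMIP2 after quantile normalization (0.24) or without control clone 2, nor MSN, NF2, CEMIP2 and HYAL2 with the span trend removed (0.09, 0.01, 0.21 and -0.24). NF2 was lost without control clone 2 too (0.26), and with the span trend removed EZR passed at -0.29 (adjusted p = 0.0297). NF2 and CEMIP2 each failed with any 1 of 5 clones left out, and HAS2 with any 1 of 2.

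ALCAM (Entrez gene 214) encodes an adhesion protein of the immunoglobulin family that binds itself on neighbouring cells. RWDD4 clones 17, 24, 5 and 6 lay at 8.56, 8.33, 8.36 and 8.73, and control clones 2, 3, 4 and 5 at 6.73, 7.52, 7.18 and 7.31. The nearest clones of the groups were 0.81 apart, the widest gap among the 9 genes. ALCAM rose by 1.31 (SE 0.16) or 2.48-fold, with the lowest adjusted p of the 9, 0.00016 (exact permutation p 0.0286).

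MCAM (Entrez gene 4162), an immunoglobulin adhesion protein of melanoma and endothelial cells, went the other way. It lay at 4.49, 5.0, 4.61 and 4.61 in the RWDD4 clones and at 5.22, 5.25, 4.81 and 5.07 in the control clones, in the order used above. RWDD4 clone 24 was above control clone 4, so the groups overlapped, and 4 of the 8 values were under the median of the deposited values. The fall of 0.41 (SE 0.13) had an adjusted p of 0.0286 and an exact permutation p of 0.0571. It did not pass with any 1 of 5 of the 8 clones left out, after cyclic loess (-0.33) or with the span trend removed (-0.2).

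Of 23 other immunoglobulin adhesion genes measured, 8 fell and 2 rose (median -0.22), which is 34.8% and 8.7% against 21.6% and 25.1% of all genes; the difference in shares was not tested. CD47, a surface signal against phagocytosis, rose by 1.34 (SE 0.18; adjusted p = 0.000243), with control clones at 7.55 to 8.55 and RWDD4 clones at 9.37 to 9.6. NECTIN3 rose by 0.51, while its relatives NECTIN1 and NECTIN2 fell by 0.31 and 0.43; NECTIN3 did not pass with any 1 of 2 clones left out, after quantile normalization (0.26) or with the span trend removed (0.21). CEACAM6 fell by 1.12 (SE 0.33), with overlap, and the leukocyte ligand ICAM1 by 1.03 (SE 0.15). The sheddases ADAM10 and ADAM17, which release the outer parts of ALCAM, CD44 and EPCAM from the membrane, rose by 1.23 (SE 0.23) and 0.92 (SE 0.24). In their list of 11 measured genes 3 rose and 1 fell (median -0.04), 27.3% and 9.09% of them. The third rise was FHL2, an EPCAM signalling partner, at 0.38, and the fall PSEN2, a subunit of the protease that cuts EPCAM within the membrane, at -0.32. FHL2 did not pass after quantile normalization (0.18) or with the span trend removed (0.09). Median centring gave 2 rises and 13 falls in the immunoglobulin list and 3 of each in the sheddase list. Over all 14884 genes it gave 3307 rises and 5765 falls.

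EPCAM (Entrez gene 4072), the epithelial adhesion protein, did not pass. It lay at 6.15, 6.51, 6.42 and 7.02 in RWDD4 clones 17, 24, 5 and 6 and at 6.4, 6.46, 6.32 and 6.41 in control clones 2, 3, 4 and 5. The control clones lay within 0.14 of each other, and the RWDD4 clones spread over 0.87 on both sides of them. The difference was 0.13 (95% interval -0.22 to 0.48; adjusted p = 0.52). Without RWDD4 clone 6 it was -0.04.

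CD24 (Entrez gene 100133941) encodes a small glycosylated surface protein anchored by a lipid. It lay at 10.62, 10.47, 10.3 and 10.28 in RWDD4 clones 17, 24, 5 and 6 and at 9.03, 9.9, 9.97 and 10.19 in control clones 2, 3, 4 and 5. The nearest clones of the groups were 0.09 apart, and the control range of 1.15 came mostly from clone 2. CD24 rose by 0.64 (SE 0.21) or 1.56-fold (adjusted p = 0.0305). It did not pass without RWDD4 clone 17 or clone 24, and without control clone 2 the rise was 0.39 (adjusted p = 0.0199). The genome holds pseudogene copies of CD24, and whether the probe set reads them was not determined. CD44 and CD24, often used as an opposed pair of markers, thus both rose.

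**Figure D2:**
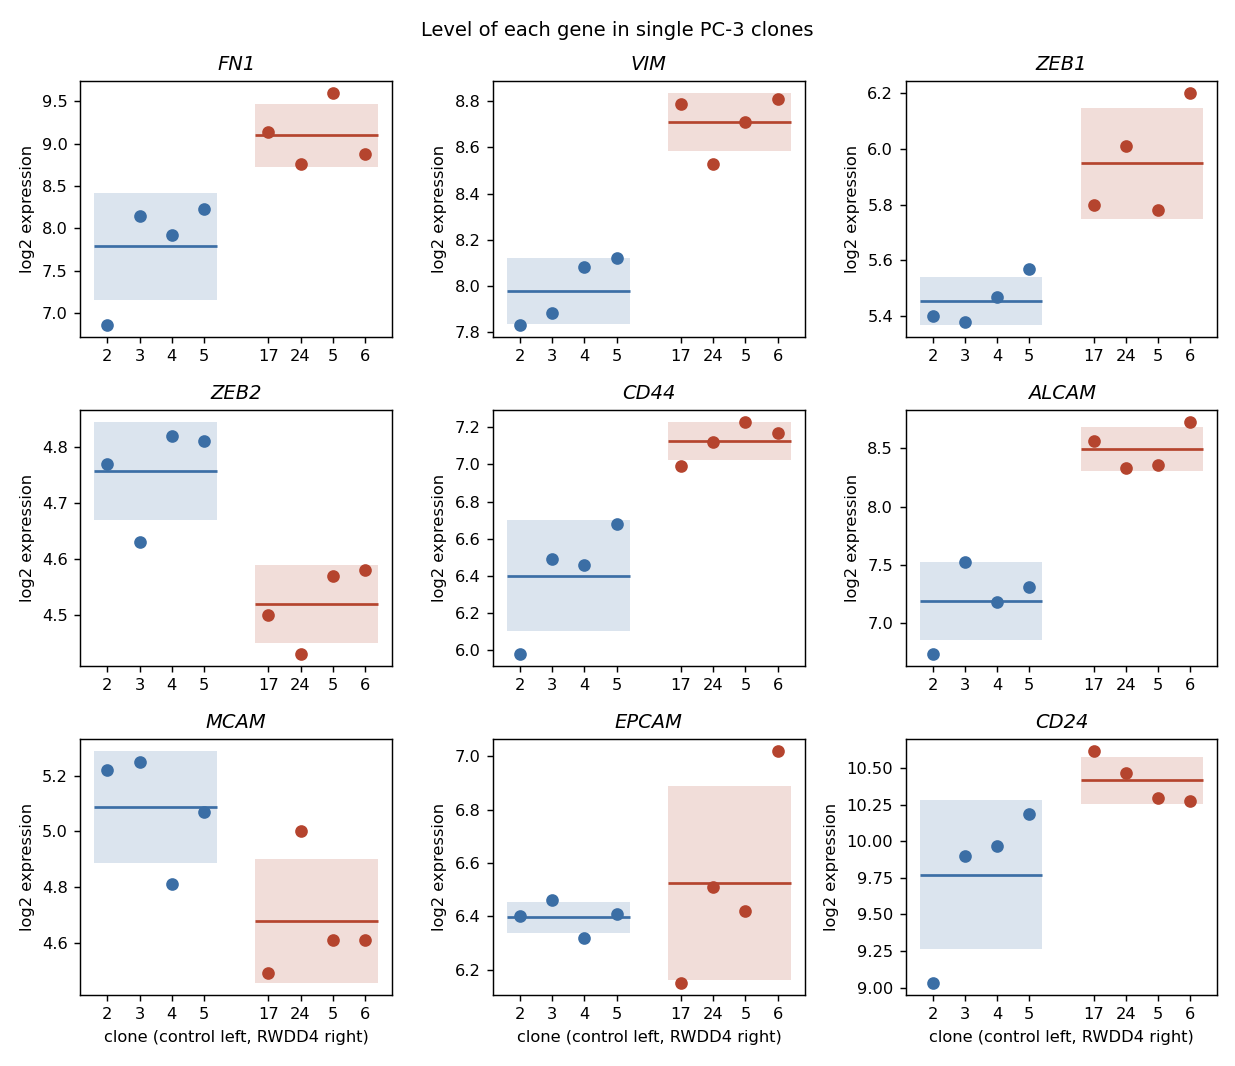
Log2 level of each of the 9 genes (y axis) in the single clones (x axis; control clones in blue on the left, RWDD4 clones in red on the right), with the group mean as a line and 1 SD as a band. The groups are apart in 7 genes and overlap in MCAM and EPCAM, and control clone 2 is the lowest clone in FN1, VIM, CD44, ALCAM and CD24.

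The remaining lists place these genes among their neighbours. Of 7 measured mesenchymal markers 2 rose and 2 fell (median 0.01), 28.6% each. The receptor kinase AXL rose by 1.05 (SE 0.14; adjusted p = 0.000245), with control clones at 10.06 to 10.52 and RWDD4 clones at 11.01 to 11.55, and the microfibril protein FBN1 by 0.59. The calcium-binding S100A4 and the surface glycoprotein THY1 fell by 0.55 and 0.36. FBN1, S100A4 and THY1 did not pass with the span trend removed (0.34, -0.26 and -0.16), nor FBN1 after quantile normalization (0.36). THY1 was lost with any 1 of 6 of the 8 clones left out, control clone 2 among them, and FBN1 with any 1 of 2. Of 7 measured genes for fibronectin receptors and matrix assembly 2 rose and 1 fell (median 0.02). These shares, 28.6% and 14.3%, stand against 25.1% and 21.6% of all genes. LTBP1, which anchors latent TGF-beta in the matrix, rose by 1.47 (SE 0.22) and the integrin activator FERMT2 by 1.27 (SE 0.20). The syndecan SDC4 fell by 0.52, and FBLN1, TNS1, TLN1 and PXN did not pass. All 7 integrin genes of that list were left unnamed by the annotation used and were not analysed here. Beside vimentin, 5 of 8 measured filament genes, or 62.5%, fell and none rose (median -0.33), with 21.6% of all genes lower: KRT7 by 0.66, KRT19 by 0.54, KRT18 by 0.40, KRT8 by 0.28 and the lamin LMNA by 0.39. KRT18 and KRT19 did not pass with the span trend removed (-0.12 and -0.26), and KRT8 did not with any 1 of 4 clones left out, control clone 2 among them. The medians of the mesenchymal and fibronectin lists were -0.12 and -0.1 after median centring. Over the 105 measured genes of all 9 lists 18 rose and 31 fell, which is 17.1% and 29.5% against 25.1% and 21.6% of all genes.

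**Figure D3:**
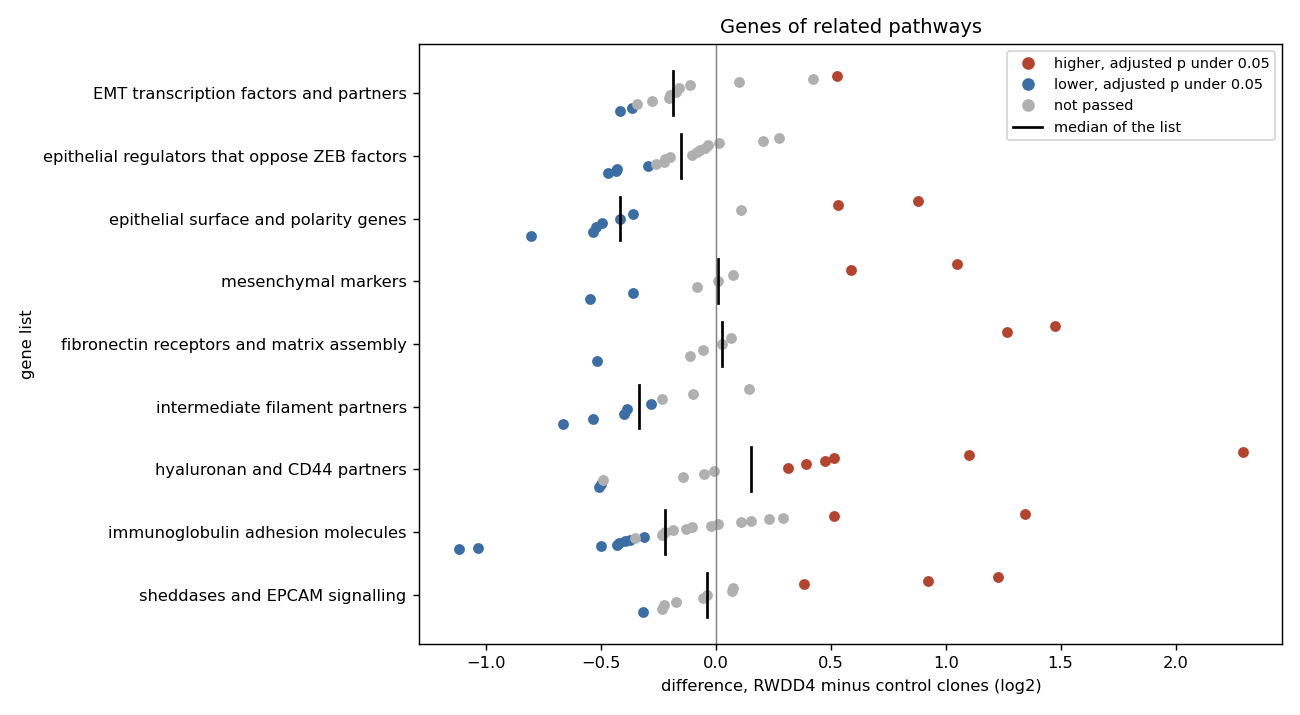
Differences between RWDD4 and control clones (x axis, log2) for the measured genes of 9 related lists (rows), with each list's median as a black bar. Points are red for higher, blue for lower and grey for not passed; the filament and epithelial surface lists have the lowest medians, -0.33 and -0.42, and HMMR lies farthest to the right at 2.29.

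Genomic span moved with the differences. Over the 14884 genes, which are not independent, Spearman's rho of difference and genomic span was 0.36, and the median span was 20.7 kb. ZEB1 and ALCAM span 211 kb and 210.0 kb, ZEB2 136 kb, CD44 93.2 kb and FN1 75.2 kb. EPCAM spans 17.7 kb, VIM 9.35 kb, MCAM 8.60 kb and CD24 7.025 kb. After each array's trend over span was removed, the rises of VIM and CD24 were larger, at 0.93 and 0.88, and those of ALCAM, FN1 and CD44 smaller but still past the test, at 1.05, 1.02 and 0.42. ZEB1 was at 0.23 (adjusted p = 0.106), ZEB2 at -0.54 (adjusted p = 0.000745). ZEB1, the member with the longest span, thus lost its call and ZEB2 gained a clearer one.

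Variation within the groups followed a shared axis, which held 38.9% of the within-group variance and was set mostly by control clone 2. As a description over 8 clones, after subtraction of each group's mean, the values of CD44, FN1, ALCAM and CD24 correlated with it at -0.94, -0.87, -0.86 and -0.78, and those of VIM at -0.59, ZEB1 at -0.29, MCAM at 0.28, EPCAM at -0.26 and ZEB2 at -0.06. With each array's position on the axis as a covariate, the differences were -0.25 (SE 0.34) for FN1, -0.0019 (SE 0.19) for CD44 and -0.37 (SE 0.33) for CD24. Those of ALCAM, VIM, ZEB1 and ZEB2 were 0.51 (SE 0.23), 0.46 (SE 0.21), 0.34 (SE 0.24) and -0.26 (SE 0.19). None of the 9 passed at an adjusted p under 0.05 from limma, nor at an unadjusted p under 0.05, and of all genes 1 passed. The groups did not overlap on the axis, so in this fit the group and the axis can only partly be told apart.

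**Figure D4:**
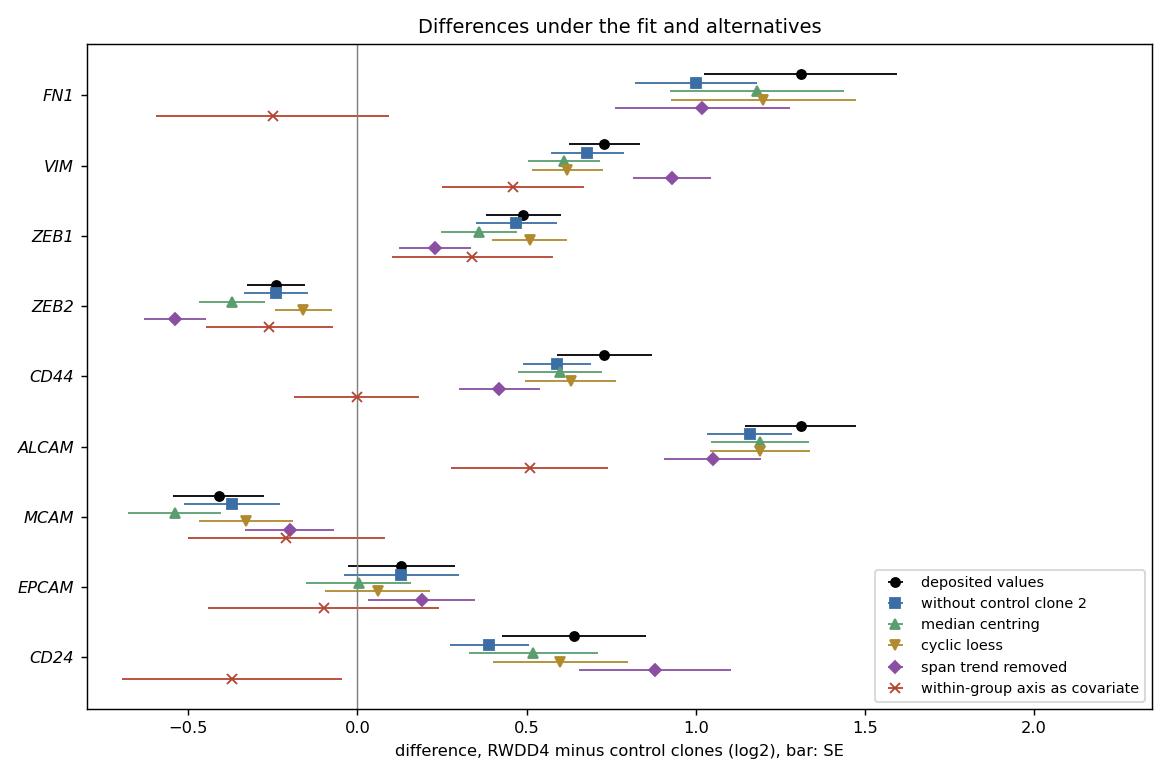
Difference between RWDD4 and control clones (x axis, log2; bars are standard errors) for the 9 genes (rows) in the fit on the deposited values and 5 alternatives. ALCAM, VIM and ZEB1 stay above 0 in all 6, and ZEB2 and MCAM stay below 0. Once the within-group axis is a covariate, FN1, CD24 and EPCAM lie below 0, at -0.25, -0.37 and -0.1, and CD44 at -0.0019.

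Co-variation over single clones was described with the group means subtracted, for the 36 pairs of the 9 genes over 8 clones. FN1 and CD44 had an r of 0.85, CD44 and CD24 0.8, FN1 and CD24 0.77, ALCAM and CD24 0.69 and CD44 and ALCAM 0.68. In the same order the values were 0.33, -0.95, -0.23, -0.13 and -0.19 within the RWDD4 clones. Within the control clones they were 0.98, 0.99, 0.98, 0.84 and 0.85. The values over all 8 clones rested on control clone 2: without it they were 0.4, -0.14, -0.06, -0.21 and -0.11. For other pairs the value was as large without that clone. ZEB1 and EPCAM had 0.8, and 0.82 without it, both genes being highest in RWDD4 clone 6; within the groups the value was 0.91 in the RWDD4 clones and -0.35 in the control clones. VIM and MCAM had -0.85 with and without it, and -0.94 and -0.78 within the RWDD4 and control groups. VIM and ZEB2 had 0.69 and 0.87, and 0.78 and 0.64 within the groups. Both VIM pairs rest on its brightest probe set, and its other probe sets were not correlated here. They order the clones differently: RWDD4 clone 6 was the highest RWDD4 clone on the brightest (8.81) and the lowest on the dimmest (6.68). Whether the signs of the VIM pairs hold for the other probe sets was not determined. Of the 36 pairs 11 were over 0.5, and 3 without control clone 2.

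Many genes of the array tracked the 9 as closely. Over the same 8 centred values, the number of genes with an r over 0.9 was 478 for CD44, 363 for FN1, 236 for ALCAM, 108 for CD24, 72 for VIM, 52 for MCAM, 49 for ZEB2, 44 for EPCAM and 14 for ZEB1. The most alike were SUZ12 and UBA6 for CD44 (0.993 and 0.991), LAS1L and SNX6 for FN1 (0.994 and 0.986) and NIPA1 and VIPAS39 for ALCAM (0.989 and 0.982). CALD1 and FECH followed CD24 (0.967 each), HS3ST3A1 and OPCML followed VIM (0.987 and 0.976), and EFNA1 and F2 followed MCAM (0.978 and 0.976). For ZEB1 they were EEA1 and TMC4 (0.949 and 0.936), for ZEB2 APH1A and CSF3R (0.976 and 0.974) and for EPCAM GTF2IRD1 and ZNF235 (0.974 and 0.958). With 8 points and 14884 genes such values carry no test.

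**Figure D5:**
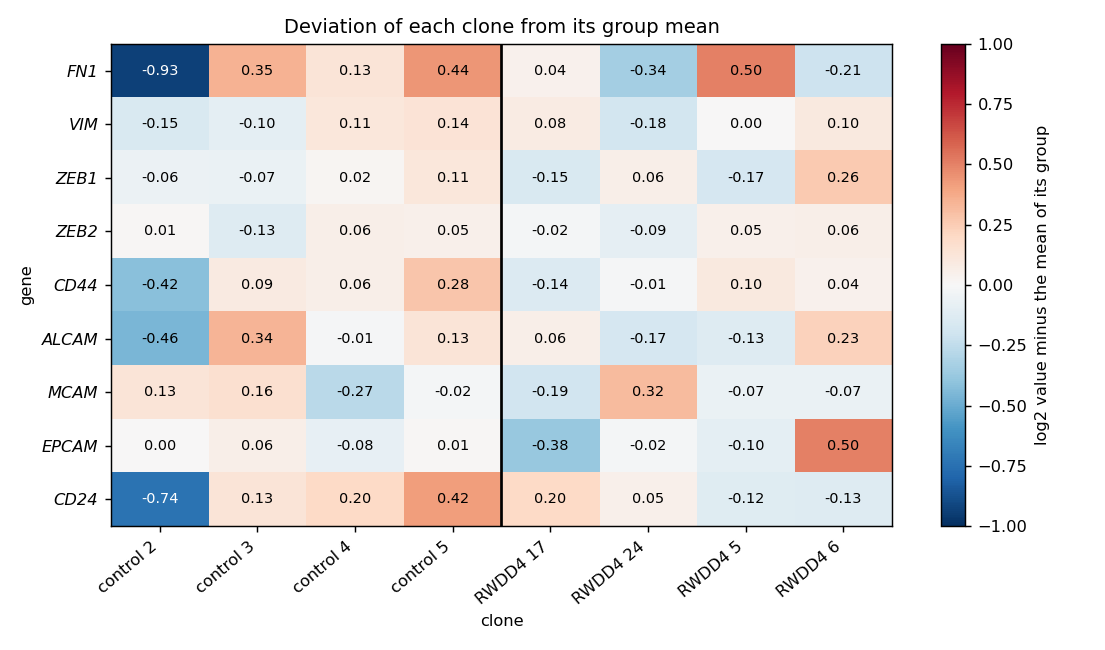
Log2 value of each clone minus the mean of its group (colour and printed number) for the 9 genes (rows) in the 8 clones (columns, control clones left of the line). Control clone 2 is at -0.93 for FN1, -0.74 for CD24, -0.46 for ALCAM and -0.42 for CD44, and RWDD4 clone 6 at 0.5 for EPCAM and 0.26 for ZEB1.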

How the data were processed

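The authors deposited log2 expression values of 53617 probe sets on 8 arrays. Partek and RMA are the tools in the submitters' processing notes; settings are not given. RMA corrects background, normalizes between arrays and summarises probes, so a gene can be compared between arrays but not with another gene. The sources used here state no genome build and no batch. The annotation named 1 gene for 16098 probe sets (14884 genes, all matched by gene ID to RefSeq); 37519 were unlisted. The highest-mean probe set stood for a gene.

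RWDD4 minus control clones was fitted over all genes with lmFit and eBayes of limma 3.58.1 (R 4.3.3), as a two-sided test with no covariate and p-values adjusted by Benjamini-Hochberg; rose and fell mean an adjusted p under 0.05. Exact permutation tests used the 70 relabellings and were two-sided. The 9 genes and the 9 related lists were chosen with earlier results of these data known. From each list up to 4 genes with the largest difference past the test were named, others for their role or the 2 most alike to each of the 9, and further members after their values were seen. Alternatives covered variance model, probe set choice, a filter on low means, 3 scalings, array weights, all probe sets, a lowess (span 0.3) over log2 genomic span, the within-group axis, and leaving out each clone. The steps were tested on simulated data. The number of arrays limits the precision.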

Additional observations from a re-analysis of the deposited data

Results flagged for a closer look

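Of 180 sets of 4 clones (each named gene in each group), 8 held a clone far from the other 3, by the gap to its nearest neighbour over the range of the set; about 1 in 20 would do so by chance. None was 1 of the 9 genes. Control clone 2 was the low clone in 4 of them, LTBP1 (8.42, nearest 9.35), FERMT2 (7.12, nearest 8.03), MSN (11.87, nearest 12.16) and LAS1L (9.43, nearest 9.74). RWDD4 clone 6 was low in RWDD4 itself (9.87, nearest 10.42), and RWDD4 clone 5 in SNAI2 (9.49, nearest 10.21). High clones were RWDD4 clone 24 in CRB3 (6.47, nearest 6.15) and control clone 5 in PECAM1 (5.76, nearest 5.53).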

How the results depend on the processing

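Over the single genes, 139 of 169 alternative values kept both direction and side of the threshold. Another 24 kept the direction but no longer passed, and 6 changed sign. The 6 were FN1 (-0.25), CD44 (-0.0019), CD24 (-0.37) and EPCAM (-0.1) once the within-group axis was a covariate, EPCAM after quantile normalization (-0.06), and EPCAM without RWDD4 clone 6 (-0.04). With that covariate the number of genes that passed was 1, that of the 9 genes 0, and those of the related lists 0 higher and 0 lower, with 1910 of all genes, 0 of the 9 and 14 of the related genes at an unadjusted p under 0.05 from limma. Median centring gave 48 of the 105 measured related genes lower, against 31 on the deposited values. Of all 14884 genes it gave 5765 lower, against 3214. With 1 clone left out, 5 to 7 of the 9 genes passed (5 without RWDD4 clone 17), against 8. Of all 14884 genes 5630 to 6768 passed in these fits, against 6955 with all clones. Leaving out 1 clone put EPCAM at -0.04 to 0.25. No paired analysis was possible because the groups share only 1 clone number, 5, and it names different clones. The filter on low means left out ZEB2 and MCAM. Depth in the sense of signal over background was not measured, so how far low values such as those of ZEB2 and MCAM lie above background is unknown.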

Other observations

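Markers of other cell types were few in the annotation. The monocyte markers CD14 and CD68 fell by 0.42 and 0.39. Over all clones CD14 lay at 3.93 to 4.83, under the median of the deposited values, 4.92, and CD68 at 9.96 to 10.88. With the span trend removed neither passed (-0.14 and -0.11), and CD68 did not with any 1 of 6 of the 8 clones left out. Of 3 endothelial markers measured, VWF fell by 0.31 and PECAM1 and KDR did not pass, at -0.13 and 0.34. VWF did not pass with any 1 of 7 clones left out or after cyclic loess (-0.23), and PECAM1 passed with the span trend removed (-0.41). KDR, a growth factor receptor, ranged from 7.65 in RWDD4 clone 17 to 9.7 in RWDD4 clone 5. The prostate luminal genes KLK3, KLK2 and FOLH1 lay at -0.05, -0.08 and 0.12, none past the test. How far other cell types enter these values was not tested.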
